A study of Mus musculus with 12 samples.

Results

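Lung group 2 innate lymphoid cells (ILC2s) from mice lacking the inhibitory receptor LAIR-1 were compared with ILC2s from wild-type mice across the whole transcriptome. The comparison takes the libraries labelled LAIR-1 KO (KO 13, KO 14 and KO 15) and those labelled WT B6 (WT 9, WT 10 and WT 11), which are 6 of the 12 libraries of the series. The mice of both groups were C57BL/6, aged 8 weeks, and differ in the labels by genotype alone. Both groups received 3 intranasal doses of IL-33 at 0.5 µg per mouse, and both then spent 24 hours in culture with IL-7 (10 ng per mL) and IL-2 (10 ng per mL). All values therefore describe cytokine-activated ILC2s, and no resting cells were compared. The labels do not say which cells of the mice lack LAIR-1 or whether the replicates are separate animals, so p-values measure only the spread between these libraries, which may be technical.

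ILC2s are tissue-resident lymphocytes without an antigen receptor that answer epithelial alarmins such as IL-33 with type 2 cytokines. LAIR-1 binds collagen and proteins with collagen-like tails, and its cytoplasmic tyrosine motifs recruit the phosphatase SHP-1 and the kinase CSK, which dampen activating signals. The comparison asks which gene programs of activated lung ILC2s differ in mice without this brake.

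Libraries held 18061470 to 20878649 estimated counts. In a principal component analysis over genes averaging 50 CPM or more, the first component (37.8% of the variance) placed the WT libraries between -16.26 and -2.241 and the KO libraries between 7.576 and 10.58. Over all 14164 genes tested, the leading components instead set WT 9 (34.5%) and WT 10 (25.9%) apart from the rest. The correlation of log2 CPM across genes was 0.924 to 0.960 for pairs of WT libraries, lowest for WT 9 with WT 10, and 0.956 to 0.963 for pairs of KO libraries. WT 11 correlated with the KO libraries at 0.967 to 0.971, above each pair within a group, whereas WT 9 and WT 10 did so at 0.928 to 0.942. These correlations are over all genes tested. Over genes averaging 50 CPM or more, WT 11 correlated with the KO libraries at 0.956 to 0.957, below KO 14 with KO 15 (0.969). WT 11 had the lowest share of mitochondrially encoded mRNA (0.416%, against 0.736% to 0.822%) and the most genes with a count (17557, against 15300 to 16515). The ILC2 markers Gata3, Il1rl1 (the IL-33 receptor), Il2ra, Rora and Il7r were each above 100 CPM in all 6 libraries, whereas Thy1 lay between 10.3 and 23.1 CPM.

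Lair1 (minus strand of mm10 chromosome 7, 4003402 to 4063204) was at 3.75, 11.1 and 7.66 CPM in WT 9, 10 and 11 and at 0.427, 0 and 3.28 CPM in KO 13, 14 and 15. The 3 KO libraries lay below the 3 WT libraries, but the library labelled KO 15 held 67 counts where WT 9 held 70. The difference of KO minus WT was -2.59 ± 1.47 on the log2 scale (SE; all groups here have n = 3) and missed the edgeR threshold (adjusted p = 0.715). The log2 fold change of Lair1 was -5.08 without KO 15 (adjusted p = 0.702). Which part of the gene the knockout removes is not given in the labels, so reads outside that part check nothing. The directions below are those of the library labels.

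Over all 14164 genes tested, edgeR called 1 gene at an adjusted p under 0.05, Pxdc1 (0.00706% of genes tested), and 1186 (8.37%) were at an unadjusted p under 0.05, of which 562 (3.97%) were higher and 624 (4.41%) lower in KO. Among the 4729 genes averaging 50 CPM or more over the 6 libraries, the same test called 55 genes (1.16% of genes tested), of which 25 (0.529%) were higher in KO and 30 (0.634%) lower. An unadjusted p under 0.05 was found for 754 of the 4729 (15.9%), 377 (7.97%) in each direction. The KO libraries lay all above the WT libraries for 508 (10.7%) and all below for 486 (10.3%), so the groups did not overlap for 21.0%. DESeq2 on the same genes called 242 (5.12%). These 55 are the genes that "rose" or "fell" below, and adjusted p-values below are over those 4729 genes unless stated otherwise. The restriction to 50 CPM was first adopted after results of these data had been seen, and the 54 genes it adds did not pass over all genes. Of the called genes, Il9, Irf4, Gm42047, Tnfrsf8, Tnfsf8 and Itpr1 reached that mean only through KO (WT means 23.5 to 47.6 CPM). Lpcat2, Eya2, Pes1 and Bmp7 reached it only through WT (KO means 29.3 to 47.6 CPM). DESeq2 over all genes called 308 of the 7299 genes to which it gave an adjusted p (4.22%), and all 55 were among them. The median size of change among the 55 was 0.75 on the log2 scale, with a range from 0.44 to 2.53, against 0.16 over the 4729 genes. At least a 2-fold change was reached by 11 genes that rose and 7 that fell.

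**Figure D1:**
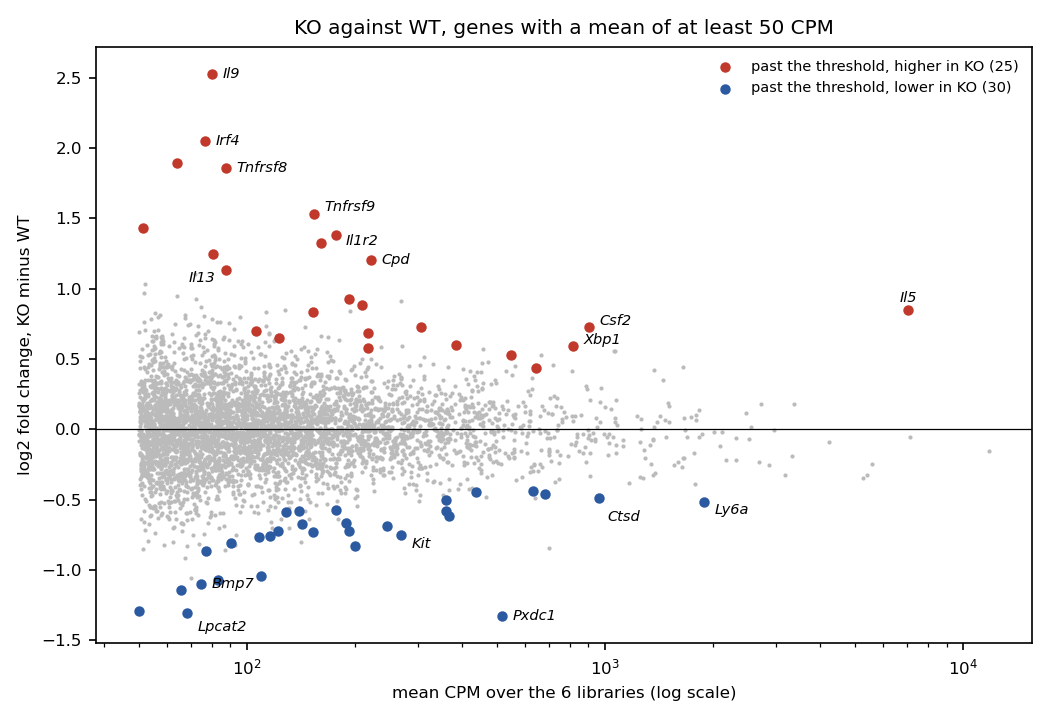
Log2 fold change of KO minus WT (vertical axis) against mean CPM over the 6 libraries (horizontal axis, log scale) for the 4729 genes averaging 50 CPM or more, with genes past the threshold in red (25 higher in KO) and blue (30 lower). Il9, Irf4 and the unlabelled Gm42047 lie highest among the genes past the threshold. Pxdc1 and Lpcat2 lie lowest, and Il5 has the highest mean among them.

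The replicates bore unequally on these calls. With 1 library left out at a time, the genes that passed were counted anew, with those among the 55 given in brackets. There were 16 (16) without KO 14, 16 (16) without KO 15, 17 (17) without WT 10 and 24 (22) without WT 9. Without WT 11 there were 50 (31), and without KO 13 there were 68 (42). All 55 kept their direction in each of the 6 smaller fits, and 13 passed in each: Gm42047, Tnfrsf8, Tnfrsf9, Tnfsf8, Il1r2, Cpd, Il5, Csf2, Kit, Ramp1, Prnp, Lpcat2 and Pxdc1. Among the 25 genes that rose, KO 13 was the KO library nearest to WT for 17, and among the 30 that fell KO 15 was nearest for 15.

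**Figure D2:**
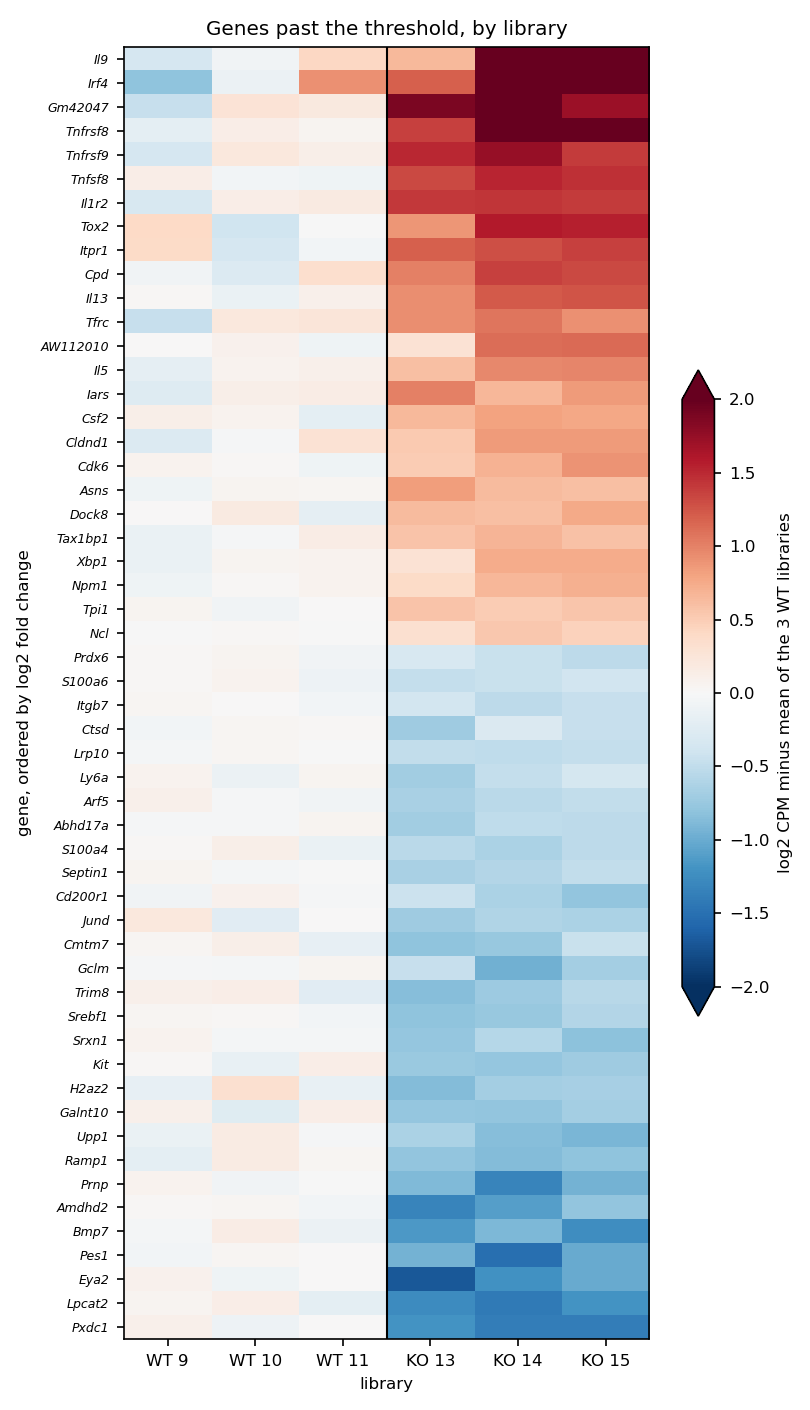
Log2 CPM of 54 of the 55 genes past the threshold in each library, minus the mean of the 3 WT libraries, as colour (red higher, blue lower, limits at -2 and 2), with genes ordered by log2 fold change from Il9 to Pxdc1. In Il9 and Irf4, KO 13 is much paler than KO 14 and KO 15, whereas Il1r2 and Tnfsf8 are even across the KO libraries.

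Of the effector cytokine genes, Il5, Il9, Il13 and Csf2 rose in KO ILC2s. Il5, the growth and survival factor of eosinophils, was at 4400, 5246 and 5374 CPM in WT and at 7592, 9758 and 9845 CPM in KO, a change of 0.85 ± 0.10 on the log2 scale (adjusted p = 0.00427). The transcript took 0.439% to 0.537% of all counts in WT and 0.767% to 0.975% in KO, so the groups did not overlap. Il13, known for driving mucus production in the airways, was at 55.5, 49.8 and 58.4 CPM in WT and 104, 127 and 130 CPM in KO and rose by 1.13 ± 0.16 (adjusted p = 0.00723). Csf2 (GM-CSF, a growth factor of myeloid cells) was at 732, 711 and 590 CPM in WT and 1053, 1184 and 1153 CPM in KO and rose by 0.73 ± 0.10 (adjusted p = 0.00682). Each KO library exceeded every WT library for these 3 genes, with KO 13 the lowest KO library in each. In bulk RNA, a change in the share of cells that make a transcript and a change in its RNA per cell cannot be told apart.

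Il9, a growth factor for mast cells and for ILC2s themselves, was at 18.1, 21.9 and 30.6 CPM in WT and at 35.8, 213 and 162 CPM in KO. KO 13 stood just above WT 11, and the rise of 2.53 ± 0.49 (adjusted p = 0.0392) was carried by KO 14 and KO 15. Il9 passed in the fit without KO 13 and in 0 of the other 5 smaller fits, where its adjusted p ran up to 0.150 (without KO 14). Il13 did not pass without KO 14 (adjusted p = 0.0513) or without KO 15 (0.0557). Of the 8 effector cytokines and growth factors with at least 50 CPM, these 4 rose and 0 fell (0.529% and 0.634% over the 4729 genes). The median log2 fold change was 0.62 against 0.0015 over all 4729 genes. The list was chosen with earlier results of these data known, and Il9 reached 50 CPM only through KO (WT mean 23.5 CPM). The members that did not pass included Areg, the epithelial repair factor amphiregulin (-0.40 ± 0.17, adjusted p = 0.286), and Ltb, lymphotoxin beta (-0.49 ± 0.16, adjusted p = 0.184). In both, all KO libraries lay below all WT libraries. Il4, another type 2 cytokine, had a mean below 50 CPM and was at 6.61 to 16.1 CPM in WT and 9.72 to 13.1 CPM in KO, with full overlap.

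The Il5, Il13 and Csf2 genes lie on chromosome 11 within the type 2 cytokine region. The 250 bases before the RefSeq start of Il13 (GRCm38.p6, minus strand, chr11:53634703-53634952) are shown because the gene rose and the window holds 1 copy of AGATAA, a motif bound by GATA factors, in capitals, starting 81 bases before the start.
Il13: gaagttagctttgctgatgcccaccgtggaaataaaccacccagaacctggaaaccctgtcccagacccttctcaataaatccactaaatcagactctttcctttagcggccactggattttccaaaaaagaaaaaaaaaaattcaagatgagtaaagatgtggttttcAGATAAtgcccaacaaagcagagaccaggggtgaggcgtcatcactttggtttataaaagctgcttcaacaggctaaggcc
The motif, searched on both strands, was in the windows of Il13 and Csf2 among 22 genes that rose with a RefSeq promoter entry, and of Lpcat2 and Lrp10 among 22 that fell. It was found for 11.4% of 27025 genes with a promoter entry and for 6.31% of those with at least 50 CPM. A gene with several starts counted if any of its windows matched. A match describes the letters alone.

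**Figure D3:**
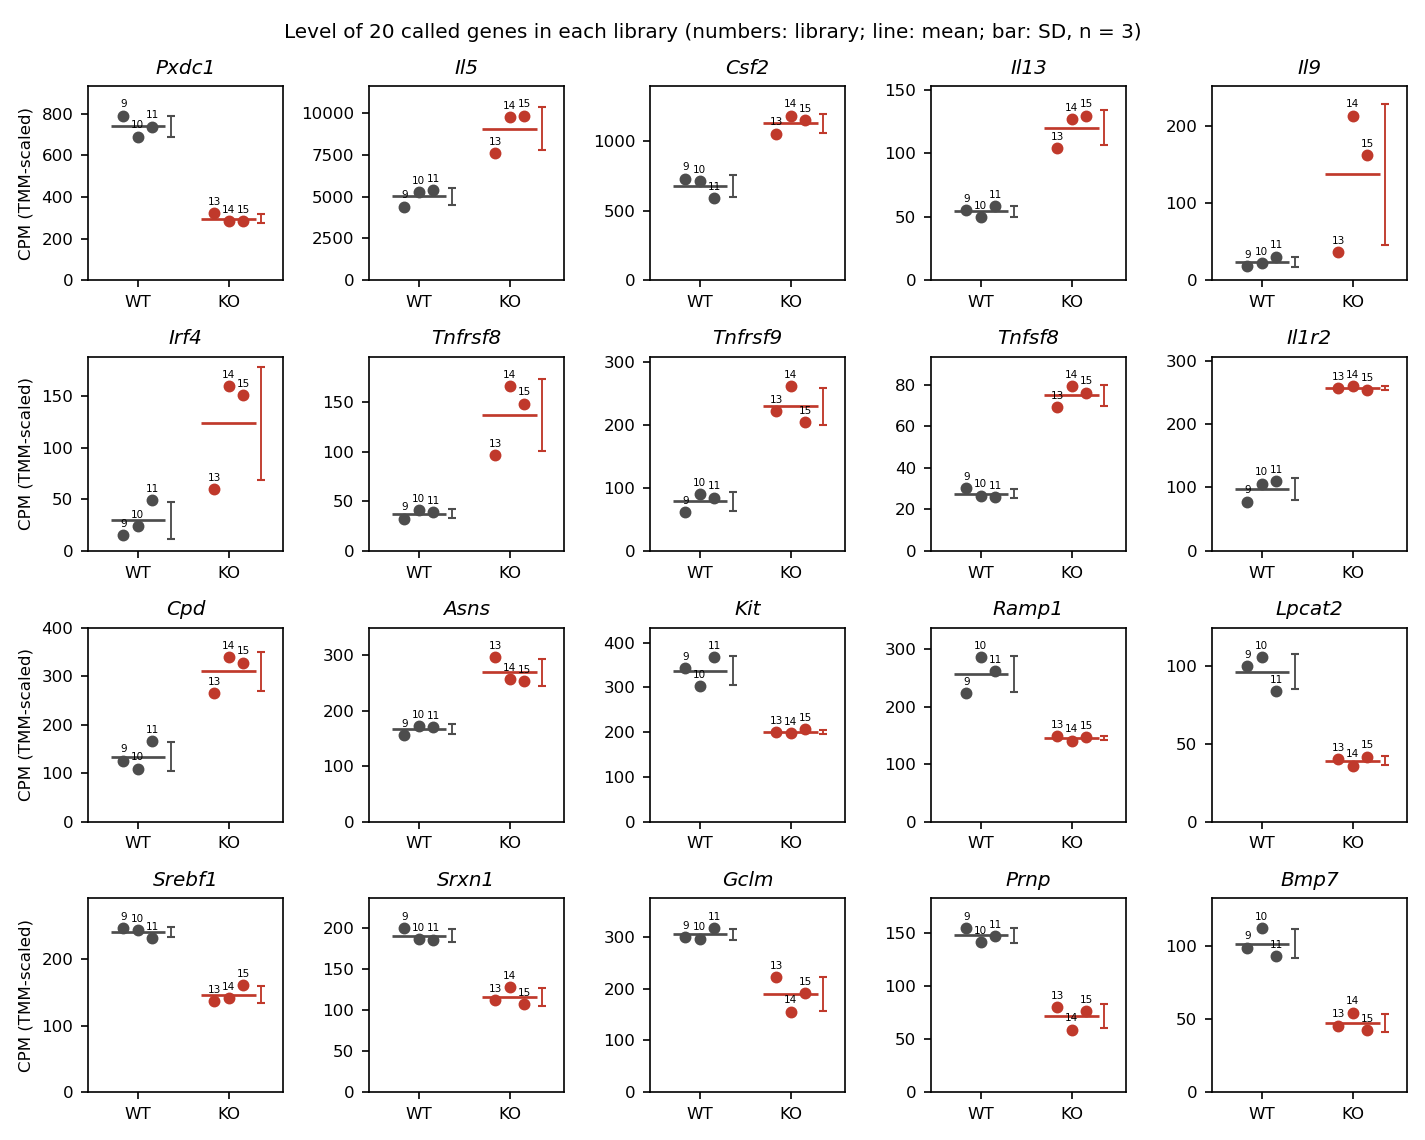
TMM-scaled CPM (vertical axes, each from 0) of 20 genes past the threshold in the 3 WT (grey) and 3 KO (red) libraries, with library numbers beside the points, lines at the mean and bars of 1 SD. In each of the 20 panels the groups do not overlap, and the narrowest gaps are those of Il9 and Irf4, between WT 11 and KO 13.

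Of the costimulatory genes, the TNF superfamily members Tnfrsf8, Tnfsf8 and Tnfrsf9 rose in KO. Tnfrsf8 encodes CD30, an activation receptor of lymphocytes, and was at 32.7, 40.9 and 39.0 CPM in WT and 96.6, 166 and 149 CPM in KO (1.86 ± 0.21, adjusted p = 0.00271). Its ligand Tnfsf8 (CD30L) was at 30.2, 26.6 and 26.0 CPM in WT and 69.1, 79.1 and 76.1 CPM in KO (1.43 ± 0.19, adjusted p = 0.00517). Tnfrsf9, which encodes the costimulatory receptor CD137, was at 61.7, 90.2 and 84.7 CPM in WT and 222, 261 and 205 CPM in KO (1.53 ± 0.16, adjusted p = 0.00161). Receptor and ligand of the CD30 pair thus rose in the same libraries, and for all 3 genes the lowest KO library was above the highest WT library. Of 12 costimulatory genes with at least 50 CPM, these 3 rose and 0 fell (0.529% and 0.634% over the 4729 genes). The list's median was 0.05, and its members were chosen with earlier results of these data known. Tnfrsf8 and Tnfsf8 reached 50 CPM only through KO (WT means 37.6 and 27.6 CPM). Icos (-0.02 ± 0.15, adjusted p = 0.963), Tnfrsf18, which encodes GITR (-0.19 ± 0.11, adjusted p = 0.422), and Tnfrsf25, the receptor of TL1A (-0.23 ± 0.12, adjusted p = 0.406), did not pass. Tnfsf4, the OX40 ligand, was higher in every KO library (0.57 ± 0.20) without passing (adjusted p = 0.190).

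The promoter window of Tnfrsf8 (GRCm38.p6, minus strand, chr4:145315165-145315414) is shown for its match to TGANTCA, the AP-1 motif, in capitals 132 bases before the RefSeq start.
Tnfrsf8: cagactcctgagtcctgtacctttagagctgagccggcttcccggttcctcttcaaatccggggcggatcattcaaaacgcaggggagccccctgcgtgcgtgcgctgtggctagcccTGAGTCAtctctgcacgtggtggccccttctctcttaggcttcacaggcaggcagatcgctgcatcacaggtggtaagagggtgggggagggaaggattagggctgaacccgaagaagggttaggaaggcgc
The AP-1 motif was found for 3 of 22 genes that rose (Il9, Tnfrsf8 and, at a RefSeq start other than its farthest upstream one, Tnfrsf9). It was also found for 3 of 22 that fell (Prnp, Srxn1 and Upp1), that is 13.6% of each. The shares were 7.82% of all genes with a promoter entry and 5.01% of those with at least 50 CPM.

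Of the cytokine receptors, 1 rose and 1 fell. Il1r2, the decoy receptor that binds IL-1 without signalling, was at 77.8, 106 and 109 CPM in WT and 256, 259 and 254 CPM in KO. It rose by 1.39 ± 0.14 (adjusted p = 0.00153), and its KO libraries were nearly equal. Kit, the receptor for stem cell factor, was at 343, 302 and 368 CPM in WT and 200, 198 and 206 CPM in KO and fell (-0.75 ± 0.11, adjusted p = 0.00686). Of 15 cytokine receptors with at least 50 CPM, these were the only members that passed (0.529% rose and 0.634% fell over the 4729 genes). At an unadjusted p under 0.05, 2 were higher and 1 lower in KO (7.97% in each direction over the 4729 genes). Without overlap, 2 lay above and 2 below WT (10.7% and 10.3% over the 4729 genes), and the median was 0.08. Il7r was higher in each KO library (115, 128 and 117 CPM against 195, 186 and 150 CPM), with an adjusted p of 0.0790. Il2ra (0.16 ± 0.13, adjusted p = 0.579) and Il1rl1 (-0.10 ± 0.10, adjusted p = 0.692), receptor chains for IL-2 and IL-33, overlapped between groups.

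Among transcription factors, Irf4, which is induced by antigen-receptor and cytokine signals in lymphocytes, was at 15, 24.3 and 49.3 CPM in WT and 60.1, 159 and 151 CPM in KO. It rose by 2.05 ± 0.43 with an adjusted p of 0.0499, at the edge of the threshold, and did not pass without WT 9 (0.122), WT 10 (0.160), KO 14 (0.192) or KO 15 (0.184). Tox2, an HMG-box factor, rose from 117, 67.4 and 88.9 CPM to 165, 266 and 260 CPM (1.33 ± 0.22, adjusted p = 0.0156). As with Il9, KO 13 was the lowest KO library for both genes, and Tox2 did not pass without WT 10 (0.0648), WT 11 (0.0534), KO 14 (0.0762) or KO 15 (0.0837). Jund, an AP-1 subunit, was at 267, 196 and 231 CPM in WT and 141, 152 and 148 CPM in KO and fell (-0.67 ± 0.13, adjusted p = 0.0382). It was the 1 member called of 14 NF-kappaB, AP-1 and activation factors, and it passed without WT 10 only, with an adjusted p of up to 0.152 (without KO 15). Eya2, a transcriptional coactivator with phosphatase activity, fell from 75.5, 66.5 and 71.0 CPM to 21.9, 30.6 and 35.3 CPM (-1.29 ± 0.21, adjusted p = 0.0156), but did not pass without WT 10 (0.0550) or KO 14 (0.0859).

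The ILC2 identity list had 17 members with at least 50 CPM, of which 1 fell, 0 rose and 16 did not pass. The shares over the 4729 genes were 0.634% for falls and 0.529% for rises. At an unadjusted p under 0.05, 4 members were higher and 5 lower in KO (7.97% in each direction over the 4729 genes). Without overlap, 3 lay above and 4 below WT (10.7% and 10.3% over the 4729 genes). DESeq2 on the same 4729 genes called 3 members, and the median was -0.06. Ly6a, which encodes the surface protein Sca-1, was at 2329, 2042 and 2295 CPM in WT and 1364, 1600 and 1731 CPM in KO (-0.52 ± 0.10, adjusted p = 0.0304), and passed in the fit without KO 13 alone, its adjusted p reaching 0.134 without KO 14. Gata3, the factor that ILC2s require, was at 1393, 1189 and 1364 CPM in WT and 953, 993 and 1098 CPM in KO. The groups did not overlap, the difference was -0.38 ± 0.09, and the adjusted p was 0.0753. Rora, Bcl11b, Ets1, Ikzf3, Cd44 and Arg1 overlapped between groups, with adjusted p from 0.393 to 0.961. Pparg was higher in each KO library (0.43 ± 0.13, adjusted p = 0.129).

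Receptors and enzymes related to LAIR-1 in function gave 1 call. Of 9 signalling partners with at least 50 CPM, 0 passed in edgeR, 2 were at an unadjusted p under 0.05 (15.9% over the 4729 genes), and DESeq2 on the same 4729 genes called 1, with a median of -0.20. Ptpn6, which encodes SHP-1, was at 68.3, 67.4 and 65.9 CPM in WT and 50.9, 40.4 and 43.9 CPM in KO (-0.58 ± 0.18, adjusted p = 0.162). Dok2, an adaptor of inhibitory signalling, was at 357 to 358 CPM in WT and 265, 292 and 285 CPM in KO (-0.36 ± 0.09, adjusted p = 0.0856, and 0.0114 in DESeq2). Both lay lower in all KO libraries, while Csk was at -0.25 ± 0.16 (adjusted p = 0.484). Of the 9 partners, 3 had a positive log2 fold change. Without overlap, 1 lay above and 3 below WT (10.7% and 10.3% over the 4729 genes). Ptprc of this list was at 0.17 (adjusted p = 0.393). Ptpn11, with a mean below 50 CPM, was at 0.45 (adjusted p = 0.587 over all genes). Cd200r1, an inhibitory receptor for CD200, was at 423, 471 and 438 CPM in WT and 331, 287 and 257 CPM in KO and fell (-0.61 ± 0.11, adjusted p = 0.0304), the 1 call among 5 inhibitory receptors and ligands. It passed without KO 13 only, with an adjusted p of up to 0.143 (without KO 14). Pdcd1, which encodes PD-1 (0.29 ± 0.13, adjusted p = 0.318), and Klrg1 (-0.35 ± 0.15, adjusted p = 0.287) overlapped between groups. No gene of the collagen synthesis list passed among 6 with at least 50 CPM, and DESeq2 called 1. At an unadjusted p under 0.05 there was 1, higher in KO (7.97% over the 4729 genes). Without overlap, 3 lay above and 0 below WT (10.7% and 10.3% over the 4729 genes), and the median was 0.22. The lowest adjusted p was 0.0954 for P4ha2, a collagen prolyl hydroxylase subunit (0.64 ± 0.17).

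In the lists of the unfolded protein response and of amino acid supply, Xbp1 and Asns rose. Xbp1, whose spliced mRNA encodes the factor that expands the endoplasmic reticulum of secreting cells, was at 588, 671 and 680 CPM in WT and 791, 1076 and 1079 CPM in KO (0.59 ± 0.12, adjusted p = 0.0417). It was the 1 of 21 members of the unfolded protein list that passed, and it did so without KO 13 but in 0 of the other 5 smaller fits, with an adjusted p of up to 0.192 (without KO 14). In this list 7 members lay higher in every KO library and 0 lower (10.7% and 10.3% over the 4729 genes), with a median of 0.18. Hspa5, which encodes the chaperone BiP, was at 1249, 1381 and 1558 CPM in WT and 1746, 1961 and 2027 CPM in KO, just short of the threshold (0.44 ± 0.09, adjusted p = 0.0511). Canx, the chaperone calnexin, was at 0.46 ± 0.10 (adjusted p = 0.0535). Without KO 13, 5 members of this list passed, all higher in KO. Of 32 secretory pathway genes, 0 passed (7 at an unadjusted p under 0.05, all higher in KO, a direction taken by 7.97% of the 4729 genes at that p, and 2 by DESeq2), 8 lay above and 1 below WT without overlap (10.7% and 10.3% over the 4729 genes), and the median was 0.13.

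Asns, asparagine synthetase and a target of the stress factor ATF4, was at 156, 173 and 171 CPM in WT and 297, 257 and 253 CPM in KO and rose by 0.69 ± 0.11 (adjusted p = 0.0156). Here KO 13 was the highest library, in contrast to the cytokines. Asns did not pass without WT 9 (0.0597), WT 10 (0.0550), KO 14 (0.0621) or KO 15 (0.0540). It was the 1 call among 19 genes of the ATF4 and amino acid list, in which 7 lay above and 1 below WT without overlap (10.7% and 10.3% over the 4729 genes) and the median was 0.23. Aldh18a1, a proline synthesis enzyme, was at 0.64 ± 0.15 (adjusted p = 0.0718). Iars, the isoleucyl-tRNA synthetase gene, rose from 90.8, 118 and 120 CPM to 219, 173 and 197 CPM (0.83 ± 0.15, adjusted p = 0.0225), again highest in KO 13, and did not pass without WT 9, WT 10, KO 13 or KO 15 (0.0597 to 0.0921). The window before the RefSeq start of Asns (GRCm38.p6, minus strand, chr6:7693210-7693459, which overlaps the deposited gene model) holds the core of the C/EBP-ATF element bound by ATF4, TGATGNAA, in capitals 23 bases before the start.
Asns: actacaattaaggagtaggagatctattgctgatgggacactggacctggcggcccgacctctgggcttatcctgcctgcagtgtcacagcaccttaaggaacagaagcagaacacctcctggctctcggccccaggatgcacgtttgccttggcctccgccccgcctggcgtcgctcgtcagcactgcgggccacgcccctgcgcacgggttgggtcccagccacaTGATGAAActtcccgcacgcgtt
The core was found for 1 of 22 genes that rose (4.55%) and 0 of 22 that fell. It was found for 3.91% of all genes with a promoter entry and 2.20% of those with at least 50 CPM.

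Of the called genes of ribosome production, 2 rose and 1 fell (0.529% and 0.634% over the 4729 genes). Npm1 (0.58 ± 0.11, adjusted p = 0.0392) and Ncl (0.44 ± 0.09, adjusted p = 0.0404), the abundant nucleolar proteins nucleophosmin and nucleolin, rose in the ribosome biogenesis list. Its median was 0.33 over 17 members, of which 15 had a positive log2 fold change. Without overlap, 8 lay above and 1 below WT (10.7% and 10.3% over the 4729 genes). Pes1 of the same list, a subunit of the PeBoW complex that matures the large ribosomal subunit, went from 86.8, 92.2 and 90.8 CPM in WT to 46.9, 31.5 and 44.5 CPM in KO and fell (-1.14 ± 0.20, adjusted p = 0.0216). Its complex partner Bop1 was at 85.2, 88.5 and 102 CPM in WT and 138, 143 and 137 CPM in KO (0.59 ± 0.13, adjusted p = 0.0620). Pes1 and Bop1 thus lay on opposite sides of WT in every KO library. Npm1, Ncl and Pes1 each passed in the fit without KO 13 and in 0 of the other 5 smaller fits, with adjusted p of up to 0.187, 0.198 and 0.111 (all without KO 14). Myc was higher in each KO library (0.59 ± 0.17, adjusted p = 0.125).

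Cdk6, a G1 kinase, rose from 84.2, 81.7 and 75.4 CPM to 114, 130 and 151 CPM (0.70 ± 0.15, adjusted p = 0.0499) and was the 1 call among 32 cell cycle and replication genes, with an adjusted p of up to 0.218 (without KO 15), passing without KO 13 only. The list had a median of -0.10, with 1 member above and 6 below WT without overlap (10.7% and 10.3% over the 4729 genes). At an unadjusted p under 0.05, 1 was higher and 5 were lower in KO (7.97% in each direction over the 4729 genes). The members below WT included the licensing factor Cdt1 (-0.74 ± 0.22, adjusted p = 0.125). Tpi1, triosephosphate isomerase, rose from 463, 426 and 449 CPM to 660, 632 and 651 CPM (0.53 ± 0.09, adjusted p = 0.0156), the 1 call of 18 genes of glycolysis and hypoxia (median 0.13), and did not pass without WT 10 (0.0694), KO 14 (0.0664) or KO 15 (0.0837). Of 28 nuclear-encoded oxidative phosphorylation genes, 0 passed in edgeR or in DESeq2, 2 were at an unadjusted p under 0.05 (15.9% over the 4729 genes), and the median was -0.03. Of 11 mitochondrially encoded mRNAs, 0 passed in edgeR, 6 were at an unadjusted p under 0.05, all higher in KO (7.97% over the 4729 genes), and DESeq2 called 4. Their median was 0.45, and 0.24 without WT 11, whose share of these mRNAs was the lowest. The part of that library in the difference was not tested beyond this value. Tfrc, the transferrin receptor that imports iron, rose from 94.2, 151 and 154 CPM to 246, 272 and 244 CPM (0.93 ± 0.17, adjusted p = 0.0300), with an adjusted p of up to 0.135 (without KO 14) and calls without WT 9 and without WT 11 only.

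Among antioxidant genes, many of them targets of the factor NRF2, Srxn1, Gclm and Prdx6 fell in KO. Srxn1, sulfiredoxin, was at 200, 186 and 186 CPM in WT and 112, 128 and 107 CPM in KO (-0.73 ± 0.12, adjusted p = 0.0156). Gclm, the modifier subunit of the enzyme that starts glutathione synthesis, was at 299, 296 and 317 CPM in WT and 222, 156 and 191 CPM in KO (-0.69 ± 0.13, adjusted p = 0.0374). Prdx6, a peroxiredoxin, was at 735, 750 and 689 CPM in WT and 578, 532 and 506 CPM in KO (-0.44 ± 0.09, adjusted p = 0.0499). These 3 of 25 members fell and 0 rose (0.634% and 0.529% over the 4729 genes). Without overlap, 12 lay below WT and 0 above (10.3% and 10.7% over the 4729 genes), and the median was -0.29. Nqo1, a quinone reductase (-0.84 ± 0.21, adjusted p = 0.0843), Gclc, the catalytic partner of Gclm (-0.47 ± 0.13, adjusted p = 0.120), and the ferritin genes Fth1 (-0.33 ± 0.11, adjusted p = 0.180) and Ftl1 (-0.32 ± 0.09, adjusted p = 0.121) lay lower in every KO library without passing. The count of calls depended on the libraries: 8 without KO 13, 1 without WT 11, 1 without KO 14, and 0 without WT 9, WT 10 or KO 15. The medians of these fits stayed between -0.35 and -0.18.

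The window before Gclm (GRCm38.p6, plus strand, chr3:122245307-122245556) carries the antioxidant response element core TGACNNNGC on the opposite strand, in capitals from 134 bases before the RefSeq start.
Gclm: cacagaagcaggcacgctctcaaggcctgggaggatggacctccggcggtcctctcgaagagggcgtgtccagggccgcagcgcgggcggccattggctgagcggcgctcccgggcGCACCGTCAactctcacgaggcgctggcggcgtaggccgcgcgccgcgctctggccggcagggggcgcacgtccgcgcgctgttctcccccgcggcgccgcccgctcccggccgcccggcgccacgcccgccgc
This core was found for 3 of 22 genes that fell (Ctsd, Gclm and Prnp, 13.6%) and 4 of 22 that rose (18.2%). The shares were 11.5% of all genes with a promoter entry and 15.4% of those with at least 50 CPM. This core can overlap an AP-1 match, in which case both were counted. Srxn1 held no copy of TGACNNNGC in its window, and forms of the element with other letters were not searched.

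In the lysosome and autophagy list, Ctsd, the aspartic protease cathepsin D, was at 1082, 1144 and 1133 CPM in WT and 681, 915 and 812 CPM in KO and fell (-0.49 ± 0.10, adjusted p = 0.0499). It was the 1 call among 25 members (4 below WT without overlap and 0 above, against 10.3% and 10.7% of the 4729 genes; median -0.15), and it passed in 0 of the 6 smaller fits (adjusted p 0.0513 to 0.186). The cathepsins Ctsa (-0.43 ± 0.11, adjusted p = 0.0808) and Ctsb (-0.35 ± 0.10, adjusted p = 0.106) lay lower in each KO library.

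**Figure D4:**
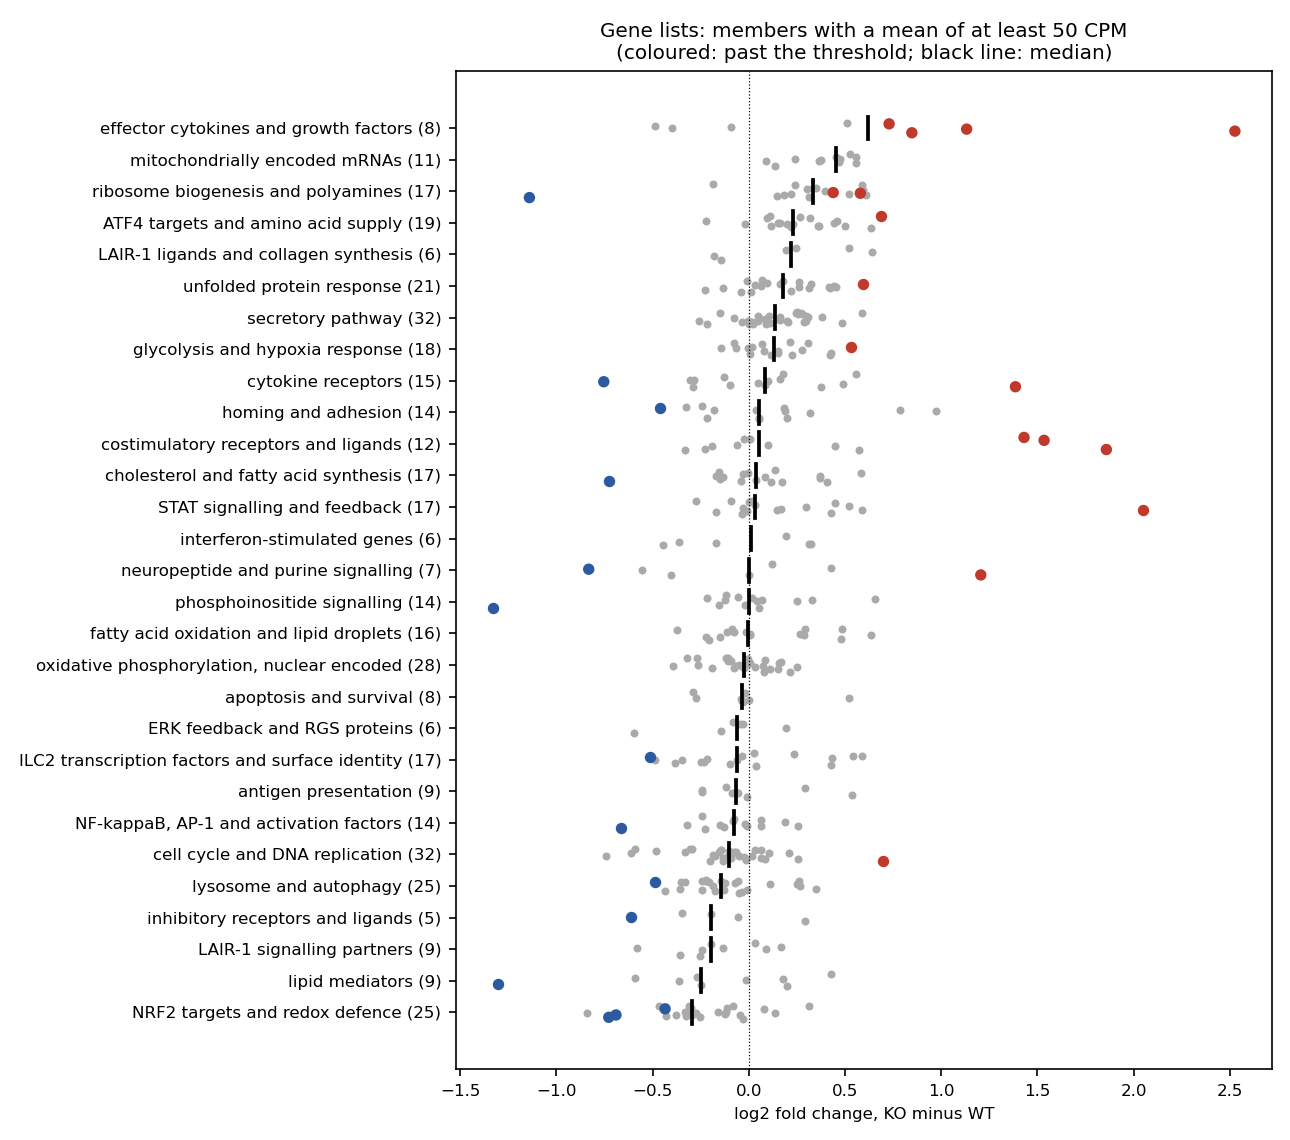
Log2 fold change of KO minus WT (horizontal axis) for members with a mean of at least 50 CPM of 29 gene lists (rows, number of members in brackets, ordered by median), with genes past the threshold in red (higher) or blue (lower), the rest in grey and medians as black lines. Effector cytokines have the highest median (0.62) and NRF2 targets the lowest (-0.29), and most lists hold 1 called gene or none.

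Pxdc1, Lpcat2 and Srebf1 fell among lipid and phosphoinositide genes. The product of Pxdc1 carries a PX domain, a fold that binds phosphoinositides, and the gene lies at 34627834 to 34653486 on chromosome 13. It was at 791, 689 and 739 CPM in WT and 321, 284 and 283 CPM in KO. It fell (-1.33 ± 0.10, adjusted p = 0.000141) and was the gene that also passed over all 14164 genes (adjusted p = 0.0264). Lpcat2, an acyltransferase that makes platelet-activating factor, was at 100, 106 and 84.0 CPM in WT and 40.3, 35.97 and 41.8 CPM in KO (-1.31 ± 0.18, adjusted p = 0.00686). For both genes the highest KO library was far below the lowest WT library. Of 9 lipid mediator genes, Lpcat2 was the 1 call, 3 lay below WT without overlap and 0 above (10.3% and 10.7% over the 4729 genes), and the median was -0.25. Alox5, the 5-lipoxygenase that starts leukotriene synthesis, was at 124, 130 and 131 CPM in WT and 64.9, 101 and 91.5 CPM in KO (-0.59 ± 0.17, adjusted p = 0.122).

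Srebf1, the master factor of fatty acid synthesis, was at 246, 243 and 231 CPM in WT and 137, 141 and 160 CPM in KO and fell (-0.73 ± 0.11, adjusted p = 0.0103), failing only without KO 14 (0.0664). It was the 1 call among 17 genes of cholesterol and fatty acid synthesis, whose median was 0.04. The cholesterol synthesis genes Idi1 (0.58 ± 0.14, adjusted p = 0.0786) and Sqle (0.41 ± 0.14, adjusted p = 0.184) were higher in each KO library without passing. Itpr1, a calcium channel gated by inositol trisphosphate, rose from 60.7, 37.1 and 45.0 CPM to 107, 113 and 120 CPM (1.25 ± 0.20, adjusted p = 0.0156), and did not pass without WT 10 (0.0550), KO 14 (0.0664) or KO 15 (0.0837). Pxdc1 was the 1 call among 14 genes of the phosphoinositide list, which leaves out Itpr1. That list was chosen with earlier results of these data known, so this count is a description only. Pik3cg, the PI3K gamma catalytic subunit, was at 0.65 ± 0.18 (adjusted p = 0.120). Of 16 genes of fatty acid oxidation and lipid droplets, 0 passed in edgeR (4 at an unadjusted p under 0.05, all higher in KO, against 7.97% of the 4729 genes) and DESeq2 called 3, among which Dgat1, a triglyceride synthase, was at 0.48 ± 0.12 (adjusted p = 0.0787).

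Of 7 neuropeptide and purine genes with at least 50 CPM, Ramp1 fell and Cpd rose (0.634% and 0.529% over the 4729 genes). At an unadjusted p under 0.05, 2 were higher and 3 lower in KO (7.97% in each direction over the 4729 genes), and the median was 0.003. Ramp1, the subunit that with Calcrl forms the receptor of the neuropeptide CGRP, was at 224, 286 and 262 CPM in WT and 149, 141 and 146 CPM in KO and fell (-0.83 ± 0.12, adjusted p = 0.00723). Calcrl was at 98.0, 96.2 and 124 CPM in WT and 138, 149 and 144 CPM in KO (0.43 ± 0.14, adjusted p = 0.172). Calca, which encodes CGRP, had a mean below 50 CPM and was at 34.4, 38.7 and 32.9 CPM in WT and 17.8, 15.5 and 19.3 CPM in KO (-1.01 ± 0.19, adjusted p = 0.253 over all genes, and 0.00125 in DESeq2). Peptide gene and Ramp1 thus lay lower, and Calcrl higher, in each KO library. Cpd, carboxypeptidase D, was at 126, 109 and 167 CPM in WT and 265, 339 and 328 CPM in KO and rose by 1.21 ± 0.16 (adjusted p = 0.00528). Nmur1, the neuromedin U receptor of ILC2s, was at -0.41 ± 0.15 (adjusted p = 0.213).

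Of 14 homing and adhesion genes, Itgb7, the integrin beta 7 subunit, fell (810, 796 and 760 CPM in WT against 611, 548 and 570 CPM in KO, -0.46 ± 0.09, adjusted p = 0.0352), and it did not pass without WT 9, WT 10, KO 14 or KO 15 (0.122 to 0.187). Ccr4, a chemokine receptor of type 2 lymphocytes, was at 32.4, 38.6 and 33.4 CPM in WT and 53.1, 68.1 and 84.8 CPM in KO (0.97 ± 0.21, adjusted p = 0.0557). Bcl2, the survival factor, was higher in each KO library (0.52 ± 0.14, adjusted p = 0.0954), and 0 of 8 apoptosis genes passed in edgeR (2 at an unadjusted p under 0.05, 1 by DESeq2, with 15.9% of the 4729 genes at that p). Interferon-stimulated genes (6) and antigen presentation genes (9) with at least 50 CPM gave 0 calls in edgeR or DESeq2, with 1 and 3 at an unadjusted p under 0.05 and medians of 0.01 and -0.07. Of the chemokine list, Cxcl3 alone had at least 50 CPM. It was at 369, 365 and 396 CPM in WT and 278, 620 and 615 CPM in KO (0.41 ± 0.23, adjusted p = 0.414), and passed without KO 13, the library in which it was lowest.

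Genes outside these lists were also among the 55. Bmp7, a secreted ligand of the TGF-beta family, fell from 99.1, 113 and 93.3 CPM to 45.7, 54.5 and 42.6 CPM (-1.10 ± 0.18, adjusted p = 0.0156). Prnp, the prion protein, fell from 155, 141 and 147 CPM to 80.1, 58.9 and 76.4 CPM (-1.05 ± 0.15, adjusted p = 0.00930). Amdhd2, an enzyme of amino sugar metabolism, fell from 114, 115 and 108 CPM to 45.0, 52.1 and 64.5 CPM (-1.07 ± 0.17, adjusted p = 0.0156). In all 3 the highest KO library stayed well below the lowest WT library, although Amdhd2 did not pass without WT 10 (0.0648) or KO 14 (0.0762) and Bmp7 did not without WT 10 (0.0664) or KO 15 (0.0837). Upp1, uridine phosphorylase (-0.81 ± 0.16, adjusted p = 0.0426), passed without KO 13 only. The calcium-binding proteins S100a4 (-0.58 ± 0.10, adjusted p = 0.0186) and S100a6 (-0.45 ± 0.09, adjusted p = 0.0417), neighbours on chromosome 3, fell together; both failed without WT 9, WT 10, KO 14 or KO 15, and S100a6 also without KO 13. Gm42047, a predicted non-coding gene, rose from 19.0, 31.8 and 30.0 CPM to 97.4, 118 and 85.9 CPM (1.89 ± 0.24, adjusted p = 0.00427), and the non-coding AW112010 rose by 0.89 ± 0.19 (adjusted p = 0.0499). The other risers were Cldnd1, Dock8 and Tax1bp1 (0.60 to 0.73), and other fallers were Lrp10, Arf5, Abhd17a, Septin1, Cmtm7, Trim8, H2az2 and Galnt10 (-0.77 to -0.50). Of these 11 genes, Upp1 and AW112010, 0 passed without KO 14, and Dock8, Arf5, Abhd17a, Septin1, Cmtm7 and H2az2 passed in 0 of the 6 smaller fits.

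Markers of other cell types were low and unevenly spread. Of 9 T cell markers, 6 are listed in the table used here, with summed levels of 140 to 149 CPM in WT and 102 to 130 CPM in KO, most of it the adaptor Lat. Cd3e was at 0 in WT 9, WT 10 and KO 14 and at most 2.45 CPM elsewhere. The 3 listed macrophage markers summed to at most 0.968 CPM except in WT 9 (7.66 CPM, nearly all Adgre1), and the 2 listed mast cell markers, Cpa3 and Tpsab1, to 0, 0 and 0.601 CPM in WT and 6.73, 6.73 and 0 CPM in KO. The 10 listed epithelial markers summed to 144 CPM in WT 11 and to 52.2 and 53.8 CPM in the other WT libraries, against 19.0 to 43.6 CPM in KO. In WT 11 the club cell gene Scgb1a1 reached 58.8 CPM, with Krt8 at 10.2 CPM. KO 14 held 6.17 and 6.42 CPM of them, and the other 4 libraries at most 0.443 CPM. Epcam, in contrast, was at 49.1, 52.1 and 55.9 CPM in WT and 16.9, 17.3 and 25.4 CPM in KO (-1.40 ± 0.22, adjusted p = 0.186 over all genes, and 5.79e-06 in DESeq2), while Sftpc was at 0 in 5 libraries. The 2 listed endothelial and stromal markers summed to 22.6, 20.6 and 18.9 CPM in WT and 44.4, 25.9 and 40.9 CPM in KO without overlap, nearly all of it Pecam1 (0.82 ± 0.27, adjusted p = 0.468 over all genes). The listed B cell (4), NK and ILC1 (4), ILC3 (3), dendritic (4) and red cell (4) markers overlapped between groups, at no more than 40.8, 8.13, 4.60, 83.8 and 19.6 CPM in sum. The part of such cells in the differences above was not tested.

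The knockout locus and the chromosomes were examined as a description. Within 5 Mb of Lair1, 59 other genes were tested, of which 8 (13.6%) did not overlap between groups, against 16.2% of all genes tested. Of the 59, 3 were at an unadjusted p under 0.05 (8.37% over all genes tested). Of the 13 with at least 50 CPM, 0 passed in edgeR and 0 were at an unadjusted p under 0.05. Of the 55 called genes, 11 lie on chromosome 11 (2.66% of its 414 genes with at least 50 CPM, against 1.16% overall), among them Il5, Il13, Csf2, Cpd, Xbp1, Npm1, Srebf1 and Pes1. This was the highest share of any chromosome, with 2.13% to 2.31% on chromosomes 6, 13 and 16, while 0 of 140 on the X chromosome and 0 of 121 on chromosome 18 passed.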

How the data were processed

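RNA sequencing was analysed in 6 libraries of sorted and cultured mouse lung ILC2s. The authors deposited estimated counts per gene and CPM of the same genes. Tools named in the submitters' processing notes are STAR 2.5.3a, bcl2fastq 2.17.1.14 and Partek, with the mm10 genome. How reads were counted is not given in the sources used here. The deposited estimated counts cover 18601 genes, and 47.9% of values are not whole (tolerance 0.001), as estimates that share reads between genes are. The authors' deposited CPM was used for an alternative test. Gene ends are the deposited stop minus 1, which matches GENCODE for 13702 of 13837 genes found.

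Counts were rounded, filtered with filterByExpr (14164 genes), scaled by TMM and tested in edgeR 4.0.16 (R 4.3.3) by quasi-likelihood, with Benjamini-Hochberg adjustment and a threshold of 0.05. The same test was then run on the 4729 genes averaging 50 CPM or more. CPM in the text is TMM-scaled, fold changes are log2 of KO over WT, and ± is SE there. Alternatives were DESeq2 1.42.0, limma 3.58.1, other scalings, other filters and leaving out each library. The scripts were tested on simulated counts. Replicate numbers are not shared between groups, so no block was used.

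Members and the 41 gene lists (850 genes) were chosen with earlier results of these data known. The genes to name were Lair1, every gene called over all genes, the 15 highest and 15 lowest fold changes of the 55 without predicted genes, and per list the called members and the 4 with the smallest p. Other genes named were chosen after their values were seen. Lists are described by counts and medians, with no test of a list. Promoters are the 250 bases before RefSeq gene starts (GRCm38.p6), found for 22 of 25 and 22 of 30 called genes. CPM is not scaled by gene length, so levels are compared between libraries and not between genes. Every sample column of the KO and WT table was used, and the fractions sorted by surface LAIR-1 were not used here. Some genes are not reported here by name, although the counts include them.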

Additional observations from a re-analysis of the deposited data

How the results depend on the processing

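Over all genes, the 1 call of edgeR became 308 with DESeq2, 2 with limma-voom, 5 among genes averaging 5 CPM or more, 34 among those averaging 20 CPM or more, and 0 with any 1 library left out (917 to 1519 genes at an unadjusted p under 0.05). It was 1 with other size factors, library totals, limma-trend on the authors' CPM, robust estimation of the spread or no filter. Among genes averaging 50 CPM or more, the 55 calls became 242 with DESeq2 and 34 with the minimum at 20 CPM (28 shared). With 1 library left out they became 16 to 68 (16 to 42 shared). When the 50 CPM filter was also recomputed on the remaining libraries, an alternative chosen after seeing the data, leaving out WT 9 gave 23, WT 10 gave 17, WT 11 gave 49, KO 13 gave 67, KO 14 gave 7 and KO 15 gave 13, and 7 genes passed in every fit: Gm42047, Tnfrsf8, Tnfrsf9, Il1r2, Cpd, Il5 and Pxdc1. Counts stayed within 1.5 times of 55 with median-of-ratios size factors (58), library totals (45), limma-voom (81), limma-trend (44 with either offset), robust estimation (57) and a minimum of 100 CPM (72). The share of calls higher in KO was 45.5%, but 55.9% with the minimum at 20 CPM and 64.0% without WT 11; the cause was not tested. For 132 named genes, 1005 of the recomputed values kept direction and side of the threshold, 136 lost the call, 45 gained it and 2 reversed: Cxcl16, with a log2 fold change of 0.30 over all libraries and 0 to 3.13 CPM in each, was at -0.286 without WT 9 and -0.826 without KO 15, and its leave-one-out values ran from -0.826 to 0.882. No paired analysis was possible because the WT and KO labels share no replicate numbers. The biological coefficient of variation was 0.505 over all genes and 0.163 above the 50 CPM minimum, and whether depth limits the calls of low genes was not tested.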

Other observations

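Below 50 CPM, DESeq2 called 47 genes that edgeR did not call over all genes, and the following were picked after their values were seen. Adap1, a phosphoinositide-binding adaptor, was at 21.3, 16.3 and 16.2 CPM in WT and 53.6, 52.3 and 52.2 CPM in KO, so the KO libraries were nearly equal (log2 fold change 1.56 ± 0.18, adjusted p = 0.141 in edgeR and 1.23e-09 in DESeq2). Myb, a factor of immature blood cells, was at 8.36, 4.98 and 7.11 CPM in WT and 23.9, 45.7 and 31.6 CPM in KO (2.30 ± 0.34, adjusted p = 0.183 in edgeR). The interferon-inducible membrane genes Ifitm2 and Ifitm3 were higher in every KO library. Ifitm3 went from 9.54, 15.3 and 16.1 CPM to 32.5, 68.0 and 57.4 CPM (adjusted p = 0.229 in edgeR and 1.98e-05 in DESeq2), while Isg20, another interferon-inducible gene, went from 23.2, 17.3 and 18.1 CPM to 5.404, 4.43 and 6.80 CPM (-1.81 ± 0.30, adjusted p = 0.214 in edgeR). These interferon-inducible genes thus lay on opposite sides of WT.

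The heat shock genes Hspa1a and Hspa1b were lower in KO. Hspa1b was at 50, 114 and 52.0 CPM in WT, highest in WT 10, and at 20.2, 6.62 and 9.30 CPM in KO (-2.58 ± 0.53, adjusted p = 0.291 in edgeR and 2.07e-05 in DESeq2). The cytokines Lif (3.81, 14.5 and 12.8 CPM against 23.7, 40.3 and 51.5 CPM) and Tnf (10.3, 20.02 and 21.5 CPM against 38.6, 49.3 and 30.2 CPM) were higher in each KO library. Their adjusted p was 0.424 for both in edgeR and 0.0138 and 0.0366 in DESeq2.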
